A study of Homo sapiens with 145 samples.

Results

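The cytosolic heat shock proteins described here are 10 genes of the HSP70, HSP110, J protein and small heat shock protein families: HSPA6, HSPA1A, HSPA1L, HSPA8, HSPA4, HSPA4L, HSPH1, DNAJB1, DNAJA1 and HSPB8. They were chosen by name, as the probe sets whose platform symbol is one of these, with the probe set of the highest mean over all arrays taken for each gene. The choice of genes was made with earlier results of these data known. All 10 passed the filter on dim probe sets, out of 12070 genes tested. The cells were HT-1080, an established line from a human fibrosarcoma, and their RNA was measured on Affymetrix arrays after 24 h with 1 of 3 chemicals. Etoposide (ETP) traps topoisomerase II on cut DNA, methyl methanesulfonate (MMS) alkylates DNA and protein, and quercetin (QUE) is a flavonol made by plants. ETP was given at 0.003, 0.01, 0.03, 0.1, 0.3, 1 and 3 µM, MMS at 1, 3, 10, 30, 100, 300 and 500 µM, and QUE at 1, 3, 10, 30, 60, 80 and 100 µM. Each chemical had its own DMSO vehicle group, and no group carried a genetic change beyond those of the line itself. Every ETP and QUE group held 5 replicates and every MMS group 6, except MMS 500 µM with 5 (numbers 2 to 6). Nothing in the labels says that replicates were separate cultures, so the p-values measure the spread between these samples, which may be technical.

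Heat shock proteins of the cytosol bind unfolded or newly made proteins and help them fold, keep soluble or be cleared. HSP70 proteins do this in cycles of ATP binding and hydrolysis, J proteins (the DNAJ families) deliver the substrate and start hydrolysis, and HSP110 proteins exchange the nucleotide so that the substrate is let go. Some of these genes are made at all times, while others are induced by heat shock factor 1 (HSF1), which binds repeats of a short sequence unit, the heat shock element, in their promoters when unfolded proteins build up. In bulk RNA of this kind, fewer expressing cells and less RNA per cell cannot be told apart.

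The promoters show where that element stands in these genes. Windows from 250 bases before to 50 bases after the start of all 10 genes were read from RefSeq (build GRCh38.p14). The element was searched on both strands in a longer and a shorter form, 3 units in a row (GAANNTTCNNGAA or TTCNNGAANNTTC) and 2 units (GAANNTTC or TTCNNGAA), where N is any base, and every match to 3 units also holds matches to 2. HSPA6, HSPA8 and DNAJA1 held 3 units, that is 3 of 10 genes, against 0.49% of all 35116 promoter windows of this length. At least 2 units stood in 6 of the 10 windows (those 3 genes, HSPA1A, HSPA1L and HSPB8), against 13.5% of all windows. The windows of HSPA4L, HSPA4, HSPH1 and DNAJB1 held neither form, which says only that these letters are not in these windows. A single window was read per gene, the first listed for it, so other start sites of a gene were not searched. The 4 sequences below are shown because they cover the gene with the largest rise (HSPA6), the main stress-induced HSP70 (HSPA1A), the abundant constitutive HSP70 (HSPA8) and the gene called at the most doses (HSPA4L). Capitals mark the longest form matched in each window. HSPA6 lies at chr1:161524290-161524589, plus strand, HSPA1A at chr6:31815293-31815592, plus strand, HSPA8 at chr11:123062087-123062386, minus strand, and HSPA4L at chr4:127781546-127781845, plus strand.
HSPA6: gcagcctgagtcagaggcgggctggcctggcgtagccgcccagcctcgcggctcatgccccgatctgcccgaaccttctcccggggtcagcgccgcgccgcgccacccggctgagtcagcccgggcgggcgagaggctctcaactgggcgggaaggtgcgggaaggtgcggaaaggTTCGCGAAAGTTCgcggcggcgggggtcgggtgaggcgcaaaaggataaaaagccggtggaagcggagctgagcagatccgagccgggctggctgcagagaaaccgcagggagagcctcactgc
HSPA1A: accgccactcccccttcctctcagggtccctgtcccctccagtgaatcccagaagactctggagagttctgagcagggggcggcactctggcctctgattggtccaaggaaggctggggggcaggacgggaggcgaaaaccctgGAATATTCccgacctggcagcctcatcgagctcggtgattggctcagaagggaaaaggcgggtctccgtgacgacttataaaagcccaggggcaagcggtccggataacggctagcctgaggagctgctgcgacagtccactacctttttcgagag
HSPA8: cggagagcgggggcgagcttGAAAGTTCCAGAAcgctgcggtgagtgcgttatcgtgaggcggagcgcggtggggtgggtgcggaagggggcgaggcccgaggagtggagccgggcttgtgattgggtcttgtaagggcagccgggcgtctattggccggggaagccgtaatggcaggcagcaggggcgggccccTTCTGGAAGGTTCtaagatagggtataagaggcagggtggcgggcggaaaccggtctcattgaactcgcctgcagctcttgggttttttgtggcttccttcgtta
HSPA4L: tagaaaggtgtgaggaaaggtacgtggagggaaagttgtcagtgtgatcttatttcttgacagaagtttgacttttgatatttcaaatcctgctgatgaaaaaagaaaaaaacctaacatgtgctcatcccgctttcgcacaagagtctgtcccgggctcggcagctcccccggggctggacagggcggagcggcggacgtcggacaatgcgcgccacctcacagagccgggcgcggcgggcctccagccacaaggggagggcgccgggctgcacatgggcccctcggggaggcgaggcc
The 3 units of HSPA6 began 74 bases before the start site. HSPA8 had matches to 3 units 230 and 55 bases before its start, and DNAJA1 had one 3 bases after its start. HSPA1A and HSPA1L are neighbours on chromosome 6 that run in opposite directions, so that their windows share 241 bases and the same 2 units.

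Levels are the authors' log2 values, so a difference of 1 is a doubling, and each gene is compared only with itself, since probe sets differ in brightness. A gene was called changed at a dose if its Benjamini-Hochberg adjusted p in limma was under 0.05 and its change at least 1.5-fold against the vehicle of the same chemical. Where a group's mean lay under 4 it was treated as background signal, and the size of a change from it is uncertain. The median of an array lay between 3.51 and 3.59 with ETP, 3.08 and 3.17 with MMS, and 3.33 and 3.41 with QUE, so levels are not compared between chemicals, only changes. Vehicle cells had the 8 mesenchymal markers examined above 4 with every chemical (5.54 to 13.3), and the 5 epithelial, 4 blood and 3 endothelial markers measured were all under 4. The 16 arrays of ETP and QUE numbered 2 (titles with r2) were left out by the rule that chose the samples, as arrays that respond like the other chemical, and calls that change when they are kept are given with the results. Keeping them is bound to shrink a change that they show in the opposite direction. A call lost in that way does not tell how firm it is.

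MMS raised most of these genes, and it did so over a narrow range of doses. No heat shock gene was called at 1, 3, 10 or 30 µM, where 0% of all genes were called in limma and 0 of the 10 had an unadjusted p under 0.05. At 100 µM none was called either, against 1.61% of all genes, although HSPA4L (0.58 ± 0.15 SE, adjusted p = 0.0143) and HSPA4 (0.19 ± 0.05 SE, adjusted p = 0.0322) passed the test below 1.5-fold, and 2 of the 10 had an unadjusted p under 0.05. At 300 µM 4 of 10 rose (HSPA1A, HSPA4L, HSPB8 and HSPH1) and none fell, where 4.46% of all genes rose. At 500 µM 8 of 10 rose and none fell, where 17.7% of all genes rose, and the remaining pair, HSPA4 and HSPA8, passed the test at less than 1.5-fold. The median change of the 10 genes was 0.54 at 300 µM and 1.08 at 500 µM, beside 0.03 and 0.05 over all genes tested. At 300 µM the dosed and vehicle values did not overlap for 6 of 10 genes (16.2% of all genes), and at 500 µM for 8 of 10 (38.6% of all genes).

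**Figure D1:**
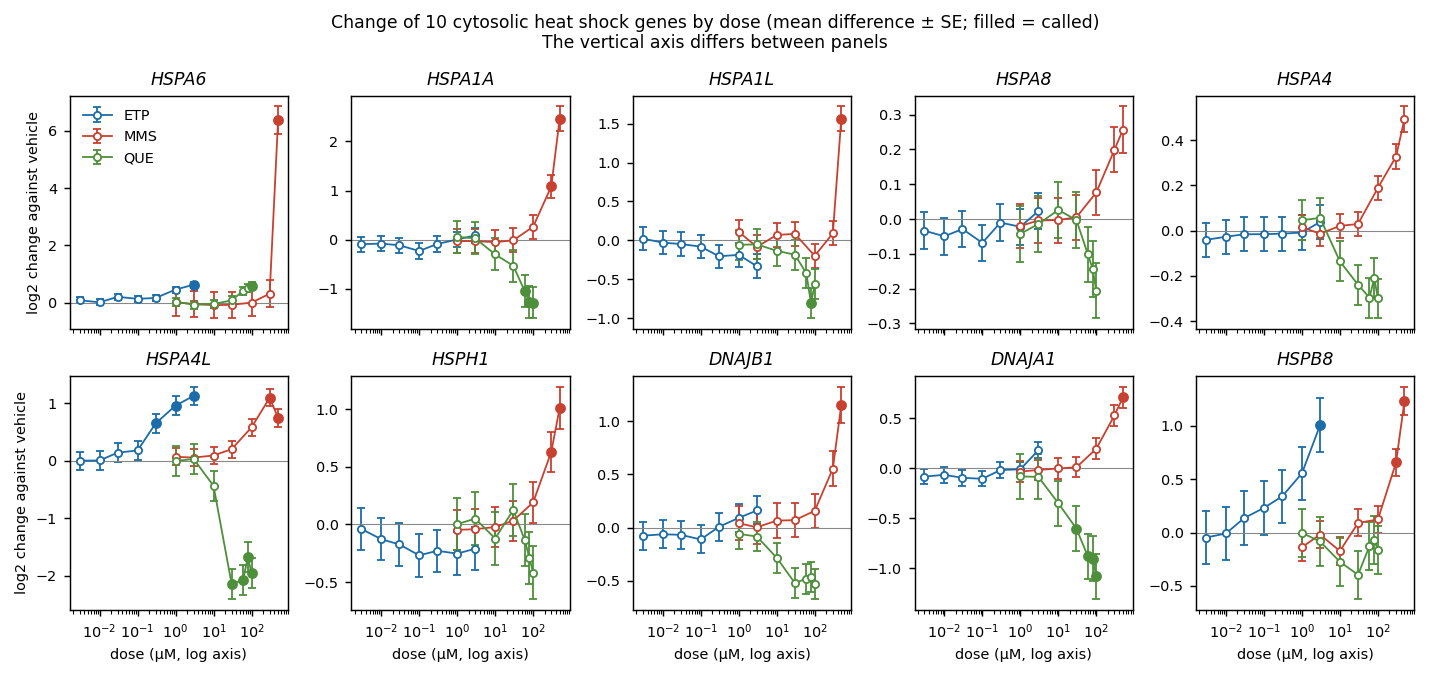
Change of each cytosolic heat shock gene against the vehicle of the same chemical (log2, mean difference ± SE from limma, vertical axis, own scale per gene) by dose in µM on a log axis, for ETP, MMS and QUE; filled points were called. With MMS the changes grew between 100 and 500 µM, to 6.37 for HSPA6, while with QUE HSPA4L fell by 2.14 already at 30 µM.

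HSPA6, the strictly stress-induced HSP70 that resting cells make little of, had the largest rise. Its vehicle values in the MMS experiment were 3.39, 3.37, 3.25, 3.93, 3.43 and 3.38, all under 4, and at 300 µM the values were 4.07, 3.67, 3.69, 3.56, 3.66 and 3.99. At 500 µM they were 10.63, 10.37, 12.10, 5.41 and 10.61 in numbers 2 to 6. The vehicle and 300 µM groups overlapped, while every 500 µM replicate lay above every vehicle. The change was 6.37 ± 0.48 (SE) at 500 µM (adjusted p = 2.79e-15; two-sided exact permutation p = 0.00216, the smallest that 5 against 6 allows) and 0.32 ± 0.46 at 300 µM (adjusted p = 0.638). The step from 300 to 500 µM was itself called, at 6.05 ± 0.48 (adjusted p = 1.32e-13). These SEs come from 1 spread per gene that limma takes over all MMS groups, while the SD of HSPA6 was 2.56 at 500 µM against 0.24 in the vehicle. The shared SE is therefore too large for the 300 µM change. For the 500 µM change and the step it is too small, and their limma p-values are too small as well. The exact permutation test does not use this shared spread. Since the vehicle lay under 4, the fold of 82.6 is uncertain in size. Another HSPA6 probe set reached 4 in 5 of 145 arrays, so no size is given from it.

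HSPA1A, the main heat-induced HSP70 of the cytosol, rose at both upper doses of MMS. It read 9.65, 9.61, 9.68, 9.61, 8.48 and 9.17 in the vehicles, 10.49, 10.30, 10.64, 10.30, 10.31 and 10.68 at 300 µM, and 11.91, 11.97, 12.60, 10.44 and 12.23 at 500 µM. The 3 groups stood apart from vehicle upwards, apart from number 5 at 500 µM, which lay among the 300 µM values. Its change was 1.08 ± 0.24 at 300 µM (adjusted p = 0.000404) and 2.46 ± 0.25 at 500 µM (adjusted p = 2.01e-11), a 5.51-fold rise, and the step between these doses was called at 1.38 ± 0.25 (adjusted p = 1.74e-05). HSPA1B is a near-identical copy of HSPA1A, and RNA of either could be read by this probe set. HSPA1L, an HSP70 known mainly from testis, went from a vehicle mean of 4.35 ± 0.20 (SD, n = 6) to 5.91, 5.29, 6.46, 6.05 and 5.86 at 500 µM, with no overlap, a change of 1.56 ± 0.16 (adjusted p = 2.07e-11). At 300 µM it was 0.09 ± 0.15, and the step to 500 µM was called at 1.47 ± 0.16. Another, dimmer HSPA1L probe set changed by 0.06, so the rise of HSPA1L rests on 1 probe set.

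HSPA8, the constitutive HSP70 of all cells, had the smallest change of the 10 genes at MMS 500 µM on the probe sets used. Its mean was 12.98 ± 0.13 (SD, n = 6) in the MMS vehicles and 13.23 ± 0.14 (SD, n = 5) at 500 µM, with 4 of 5 replicates above all vehicles, a change of 0.26 ± 0.07 (adjusted p = 0.00106) that is under 1.5-fold. Dimmer HSPA8 probe sets changed by 0.23, 0.30 and 0.51 at that dose. HSPA8 was called at 0 of the 21 doses of the 3 chemicals, as was HSPA4, in limma without and with the replicate block. The HSPA8 window held the most matches to 3 units of the 10. Whether matches in the windows bear on the changes was not tested.

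On the probe sets used, the 3 HSP110 genes differed in their dose course. HSPA4 passed the test at 3 doses, higher by 0.19 at 100 µM, 0.33 at 300 µM and 0.49 ± 0.06 at 500 µM (adjusted p = 3.17e-10), each below 1.5-fold. Its 300 and 500 µM replicates did not overlap the vehicles. Other HSPA4 probe sets changed by 0.32, 0.55 and 0.38 at 300 µM and by 0.46, 0.34 and 0.23 at 500 µM. With the mean of the kept HSPA4 probe sets the step between these doses was -0.01. HSPA4L, a close relative of HSPA4 that is abundant in testis, was the gene whose dosed replicates stood clear of the vehicles at the lowest dose. Vehicle replicates read 6.91, 7.01, 7.21, 6.99, 6.37 and 7.20, and all 6 replicates at 100 µM (7.28 to 7.69) lay above them. The change at that dose, just under 1.5-fold, passed that limit when any 1 of 7 replicates was left out (0.59 to 0.63), but the change was 0.46 without vehicle 5, the lowest of the vehicles. Its change was 1.09 ± 0.15 at 300 µM (adjusted p = 8.24e-08) and 0.74 ± 0.15 at 500 µM (adjusted p = 4.75e-05). At 500 µM the values were 7.36, 7.44, 7.59, 8.15 and 7.93, lower on average than at 300 µM, but the step of -0.35 ± 0.15 did not pass (adjusted p = 0.0601). HSPH1, the heat-induced HSP110, rose by 0.63 ± 0.17 at 300 µM (adjusted p = 0.00384) and 1.01 ± 0.18 at 500 µM (adjusted p = 5.88e-06), and the dosed replicates lay above all vehicles at both doses. Its vehicle number 5 stood at 9.47 against 10.18 to 10.45 in the others, and without it the change at 300 µM was 0.49, under 1.5-fold. Without replicate 6 of the 300 µM group it was 0.58, also under 1.5-fold. A dimmer HSPH1 probe set changed by 0.83 at 300 µM and 0.87 at 500 µM.

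DNAJB1, the heat-induced J protein that works with HSPA1A, was at 8.19, 8.15, 8.28, 8.17, 7.64 and 7.91 in the vehicles and at 9.12, 9.41, 10.02, 8.22 and 9.30 at MMS 500 µM. In 4 of 5 replicates it was above every vehicle, while number 5 lay within the vehicle range. It rose by 1.16 ± 0.17 (adjusted p = 1.10e-07; exact permutation p = 0.00433), and the step from 300 µM was called at 0.60 ± 0.17 (adjusted p = 0.00328), a call that was lost when replicate 2 or 5 of the 300 µM group or 3, 4 or 6 of the 500 µM group was left out (0.40 to 0.58). At 300 µM it had changed by 0.55 (adjusted p = 0.00594), below 1.5-fold, and it was called there without replicate 2 or 5 of that group or without vehicle 3 (0.60 to 0.62). DNAJA1, a constitutive farnesylated J protein, rose by 0.71 ± 0.11 at 500 µM (adjusted p = 2.05e-07), and all 5 replicates (11.55 to 11.79) lay above the vehicles (10.54 to 11.16). At 300 µM it was 0.53 ± 0.10 (adjusted p = 5.97e-05), below 1.5-fold, and called with the mean of the kept probe sets (0.62). HSPB8, a small heat shock protein that acts with BAG3 in selective autophagy, rose from a vehicle mean of 3.99 ± 0.16 (SD, n = 6) by 0.66 ± 0.13 at 300 µM (adjusted p = 5.82e-05) and 1.23 ± 0.13 at 500 µM (adjusted p = 6.82e-11). Dosed values were 4.38 to 4.82 and 4.99 to 5.40, above all vehicles, though the vehicle mean under 4 leaves the size of the rise uncertain. Its step between these doses was 0.58 ± 0.13, below 1.5-fold, and it was called with the replicate block (0.62), with quantile normalization (0.61) and when any 1 of 5 replicates was left out (0.59 to 0.64). In all, 4 of 10 genes passed at that step, each higher (HSPA6, HSPA1A, HSPA1L and DNAJB1). Of all genes, 8.17% were called higher there and 18.7% in either direction.

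Replicate number 5 of MMS 500 µM differed from the other 4 in part of the group. It was the lowest of the 5 replicates in 7 of 10 heat shock genes, and it lay farthest from the rest for HSPA6 (5.41 against 10.37 for the next). Its overall response was not small. Over the 4173 genes called at this dose, its median absolute difference from the vehicle mean was 1.03, against 0.893 to 1.02 in the others. HSPA1L (6.05), HSPA4 (11.30) and HSPA4L (8.15) were not low in it, and ZFAND2A, another heat shock factor target, read 9.86, within the 9.71 to 11.24 of the other replicates. Genes outside the group were split. BAG3 (9.89 against 10.22 to 10.71) and HSP90AA1 (12.49 against 12.67 to 12.77) were lowest in number 5, and IER5 (9.56 against 9.14 to 9.47) was highest in it. Number 5 was also the lowest in 8 of 10 of these genes in the vehicles and at 1, 3 and 10 µM. It was the lowest in 7 of 10 at 30 and 100 µM and in 1 of 10 at 300 µM. Being lowest in most of these genes was thus not particular to 500 µM. At 300 µM its median absolute difference from the vehicle mean, over the same 4173 genes, was 0.68, against 0.36 to 0.46 in the others. Replicate numbers did not pair every 500 µM sample with its vehicle (lowest correlation of deviations -0.01). Differences within a number therefore also carry the level of that vehicle. Against the vehicle of the same number, the differences of number 5 at 500 µM were 1.99 for HSPA6 (7.12 to 8.17 in the others), 1.96 for HSPA1A (2.29 to 3.06) and 0.57 for DNAJB1 (0.97 to 1.84), all 3 the smallest of the 5. For HSPH1 (1.37 against 0.61 to 1.24), DNAJA1 (1.01 against 0.43 to 0.82), HSPA4 (0.78 against 0.28 to 0.59) and HSPA4L (1.77 against 0.23 to 0.73) the same replicate had the largest difference. A cause for this replicate's values was not tested. Without it the change of HSPA6 was 7.47, and 8 genes were called as with it.

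**Figure D2:**
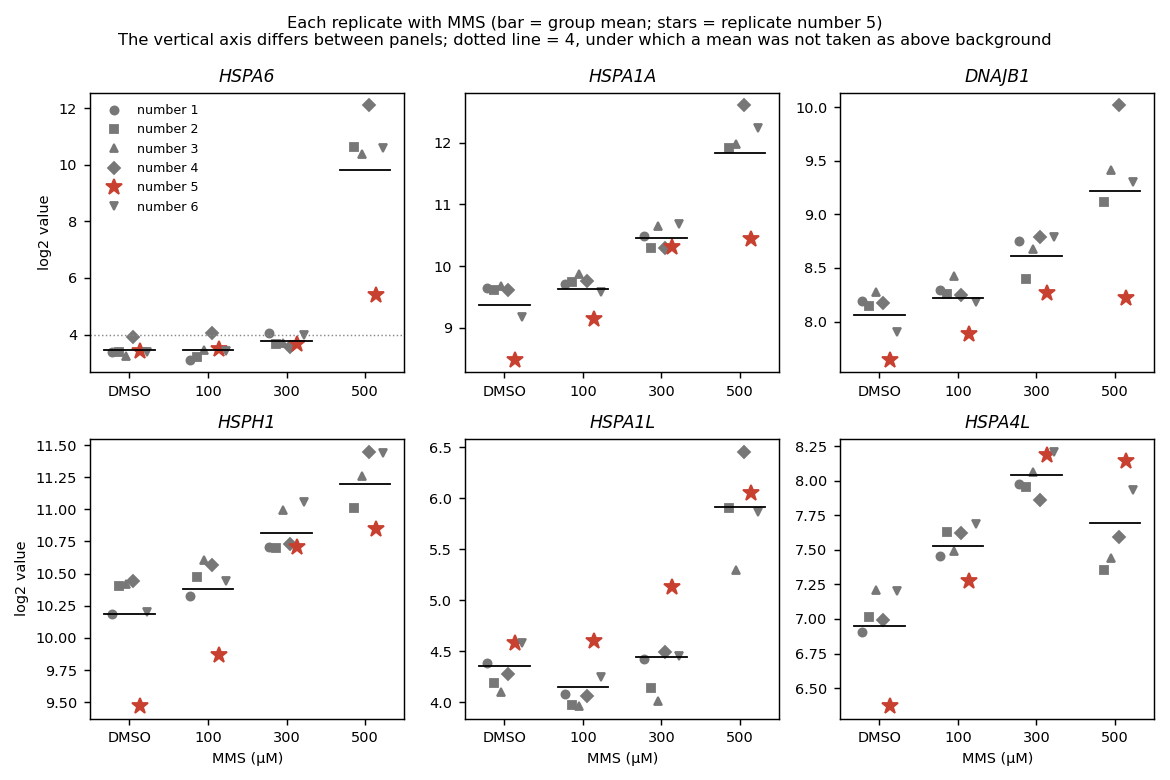
Log2 values (vertical axis, own scale per gene) of 6 heat shock genes in each replicate of the MMS vehicle, 100, 300 and 500 µM groups; bars are group means, marker shapes are replicate numbers, stars are number 5 and the dotted line for HSPA6 is at 4. At 500 µM number 5 lies far under the other HSPA6 values (5.41 against 10.37 to 12.10) and within the vehicles for DNAJB1, but among the other replicates for HSPA1L and highest for HSPA4L.

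QUE lowered some of the same genes, and a different set led. None was called at 1, 3 or 10 µM in limma, where 0.0331%, 0.0911% and 1.78% of all genes were called and 0 of the 10 had an unadjusted p under 0.05. At 30 µM 2 of 10 fell (HSPA4L and DNAJA1; 8.64% of all genes fell), at 60 µM 3 of 10 (HSPA1A as well; 12.7% of all genes) and at 80 µM 4 of 10 (HSPA1L as well; 13.1% of all genes). At 100 µM 3 of 10 fell (HSPA4L, HSPA1A and DNAJA1; 14.5% of all genes) and 1, HSPA6, rose (13.1% of all genes). A further 4 of 10 passed the test at 100 µM below 1.5-fold, all of them lower (HSPA1L, DNAJB1, HSPA4 and HSPA8). The median change of the 10 genes was -0.32 at 30 µM and -0.48 at 100 µM, beside -0.00 and 0.00 over all genes. Dosed and vehicle replicates at 100 µM did not overlap for 4 of 10 genes, against 27.6% of all genes.

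HSPA4L had the deepest fall. It read 7.31, 6.94, 6.71, 6.89 and 6.87 in the QUE vehicles and 5.15, 3.95, 4.69, 5.13 and 5.09 at 30 µM, with no overlap, and the values at 100 µM were 5.06, 5.26, 5.03, 4.77 and 4.83. Its changes were -2.14, -2.07, -1.68 and -1.96 (each ± 0.26 SE) at 30, 60, 80 and 100 µM, with adjusted p from 5.10e-08 to 2.42e-06. The steps between neighbouring doses of this range were 0.07, 0.40 and -0.28, each ± 0.26 and none called. At 10 µM it was -0.44 ± 0.26 (adjusted p = 0.445), with 3 of 5 replicates below all vehicles. With the left-out arrays kept, the changes were smaller, at -1.70, -1.54, -1.13 and -1.31, and that at 80 µM was no longer called (adjusted p = 0.0646).

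DNAJA1 and HSPA1A fell more gradually. DNAJA1 changed by -0.60 ± 0.23 at 30 µM (adjusted p = 0.0337), -0.88 at 60 µM, -0.90 at 80 µM and -1.08 at 100 µM (adjusted p = 0.000151), where it read 10.97, 9.76, 10.17, 10.40 and 10.48 against 11.58, 11.48, 11.10, 11.52 and 11.49 in the vehicles. The groups did not overlap from 60 µM up. At 30 µM the call was lost without replicate 3 (-0.40) or 4 (-0.60) of that group, without vehicle 1, 3, 5 or 6 (-0.59 to -0.57), with the left-out arrays (-0.49), and with the mean of the kept probe sets (-0.44). HSPA1A read 10.17, 9.72, 9.19, 9.82 and 9.85 in the vehicles and 9.49, 7.82, 7.98, 8.27 and 8.81 at 100 µM. Its replicate 1 lay within the vehicles at 60, 80 and 100 µM, and the other 4 below all of them. The change was -1.05 at 60 µM (adjusted p = 0.00797), -1.27 at 80 µM and -1.28 ± 0.32 at 100 µM (adjusted p = 0.00133; exact permutation p = 0.0159).

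The remaining genes moved less with QUE. DNAJB1 passed the test from 30 µM on without reaching 1.5-fold, with changes of -0.52, -0.48, -0.46 and -0.53. Without replicate 1, the highest at both doses, it was called at 30 µM (-0.61) and 100 µM (-0.62). A dimmer DNAJB1 probe set, not tested on its own, changed by -0.62 at 30 µM and -0.51 at 100 µM. HSPA1L was called lower at 1 of the 7 QUE doses, 80 µM (-0.81 ± 0.19, adjusted p = 0.000839), where replicate 3 read 3.08 and the others 4.32 to 4.83, and without that replicate it was -0.51, under 1.5-fold. With the mean of both HSPA1L probe sets, of which the dimmer lies near background, it was -0.40, also under 1.5-fold. At 100 µM it was -0.57 (adjusted p = 0.0147), and called without replicate 6 (-0.63) or vehicle 1 (-0.66). HSPA4 fell by 0.30 at 100 µM with no overlap between groups (adjusted p = 0.00501), under 1.5-fold. Other HSPA4 probe sets changed by -0.37, -0.04 and -0.51 at that dose. HSPH1 was at -0.42 ± 0.23 at 100 µM (adjusted p = 0.125) and was called there without replicate 1 (-0.60). A dimmer HSPH1 probe set, not tested on its own, changed by -0.61 at 100 µM. At the same dose HSPA8 was at -0.21 ± 0.08 (adjusted p = 0.0307) and HSPB8 was at -0.16 ± 0.23 (adjusted p = 0.571). Dimmer HSPA8 probe sets changed by -0.09, -0.25 and -0.46 there. HSPB8 was called lower at 30 µM without replicate 1, which read 5.52 against 4.30 to 4.64 in the others (-0.60, against -0.40 with it). HSPA6 moved the other way. From vehicles of 3.67 to 3.88 it read 4.28, 4.15, 4.06, 4.18 and 5.10 at 100 µM, just above background, a change of 0.59 ± 0.14 (adjusted p = 0.000582) whose size is uncertain. That call just reached 1.5-fold and was lost without replicate 6 (0.41) or vehicle 3 or 4 (0.57 and 0.58), and with the left-out arrays kept (0.57), with quantile normalization over all arrays (0.55), and with the mean of both HSPA6 probe sets (0.44).

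**Figure D3:**
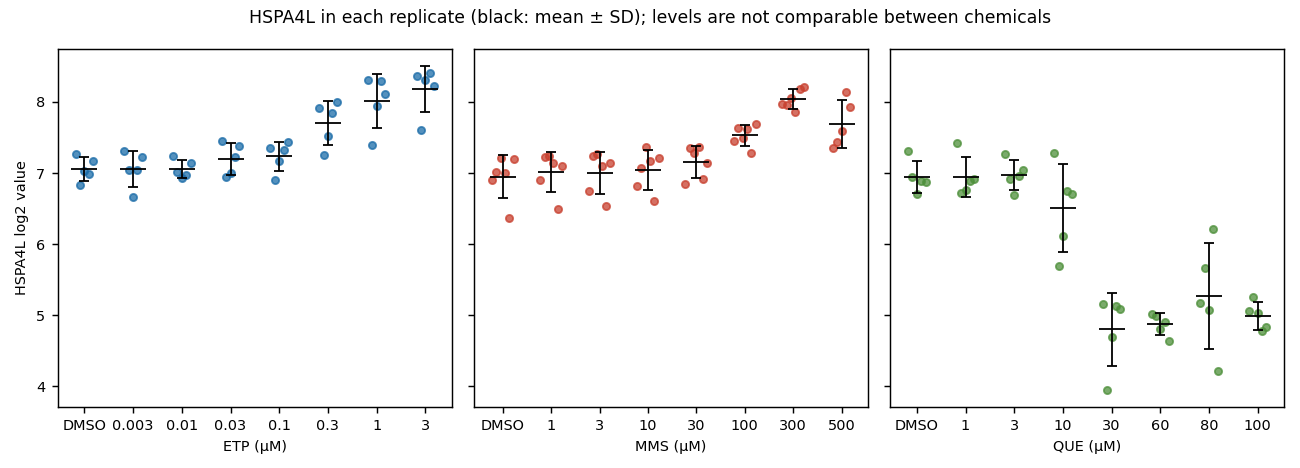
Log2 value of HSPA4L (vertical axis) in every replicate of every dose group of ETP, MMS and QUE (horizontal axes, µM), with the group mean ± SD in black; levels are not comparable between the 3 panels. Values rose from 0.3 µM ETP and from 100 µM MMS, and the QUE replicates of 30 to 100 µM (3.95 to 6.22) lay below all QUE vehicles (6.71 to 7.31).

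ETP changed few of these genes. None was called at 0.003, 0.01, 0.03 or 0.1 µM in limma, where 0%, 0%, 0.63% and 3.74% of all genes were called and 0 of the 10 had an unadjusted p under 0.05. HSPA4L alone rose at 0.3 µM (3.02% of all genes rose) and at 1 µM (5.17%), and 3 of 10 rose at 3 µM (HSPA4L, HSPB8 and HSPA6; 6.25%). None fell, against 6.92% of all genes at 3 µM. The dosed and vehicle replicates of these 3 genes did not overlap at 3 µM, and those of the other 7 did, where 23.8% of all genes did not. The median change of the 10 genes at 3 µM was 0.12, beside 0.01 over all genes.

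HSPA4L read 7.26, 6.83, 7.02, 6.99 and 7.17 in the ETP vehicles and 8.36, 7.61, 8.31, 8.40 and 8.23 at 3 µM. It was higher by 0.65 ± 0.16 at 0.3 µM (adjusted p = 0.00325), 0.96 at 1 µM (adjusted p = 1.30e-05) and 1.13 at 3 µM (adjusted p = 4.71e-07), with the SE of 0.16 at each dose. Replicate 3 was the lowest in all 3 of these dose groups and in the vehicle. With the left-out arrays kept, the changes were 0.28, 0.45 and 0.66, and HSPA4L was called at none of the 3 doses (adjusted p = 0.803, 0.588 and 0.349). Those arrays differed from the vehicle of their number by -1.59, -2.11 and -1.65 at these doses, so smaller changes were bound to follow. At 0.3 µM the call was also lost without replicate 6 (0.58). HSPB8 read 6.02, 5.50, 5.27, 5.37 and 5.40 in the vehicles and 7.23, 6.11, 6.11, 6.43 and 6.72 at 3 µM, a rise of 1.01 ± 0.25 (adjusted p = 0.00138). Here replicate 1 was the highest in both groups. At 1 µM it was 0.56 ± 0.25 (adjusted p = 0.0872), and called without vehicle 1 (0.68). HSPA6 went from 4.04, 3.78, 3.75, 3.61 and 3.85 to 4.74, 4.07, 4.37, 4.36 and 4.65, a change of 0.63 ± 0.11 (adjusted p = 9.08e-06) from a mean under 4, so that its size is uncertain. At 1 µM it was 0.46 ± 0.11 (adjusted p = 0.000897), under 1.5-fold. The call at 3 µM was lost without replicate 1 (0.56) or 6 (0.58) or vehicle 5 (0.58), and with the mean of both HSPA6 probe sets (0.39). That mean brings in the dimmer HSPA6 probe set, which lies near background. HSPA1A (0.09 ± 0.15), HSPH1 (-0.21 ± 0.18), DNAJB1 (0.16 ± 0.13), DNAJA1 (0.18 ± 0.08), HSPA1L (-0.33 ± 0.15), HSPA4 (0.04 ± 0.08) and HSPA8 (0.02 ± 0.05) did not pass at 3 µM.

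The left-out arrays are described by their own values. At ETP 3 µM the array numbered 2 differed from the vehicle of that number by -1.65 for HSPA4L, -1.05 for HSPA1A and -0.99 for DNAJA1. At QUE 100 µM the array numbered 2 differed from its vehicle by 1.91 for HSPA4L, 1.53 for HSPB8 and 0.65 for HSPA1A. HSPA4L thus moved in each as it did in the replicates of the other chemical.

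The chemicals were set against each other at their highest doses, as differences between changes from the own vehicle. The doses differ in size and in the extent of the overall response, so a difference here belongs to these 3 doses. MMS 500 µM exceeded ETP 3 µM in 5 of 10 genes, where 14.9% of all genes were called in this direction and 30.5% in either. The 5 were HSPA6 by 5.74 ± 0.47, HSPA1A by 2.37 ± 0.37, HSPA1L by 1.89 ± 0.24, HSPH1 by 1.22 ± 0.29 and DNAJB1 by 1.00 ± 0.22 (adjusted p from 6.82e-20 to 0.000232). HSPA4L and HSPB8 rose with both, and their differences of -0.38 ± 0.28 (adjusted p = 0.265) and 0.23 ± 0.29 (adjusted p = 0.554) did not pass. With the left-out arrays kept, the HSPA4L difference turned to 0.08 (adjusted p = 0.934). DNAJA1, at 0.52 ± 0.21 (adjusted p = 0.0346) and under 1.5-fold, was called with those arrays (0.72) and with the mean of the kept probe sets (0.63). MMS 500 µM exceeded QUE 100 µM in 9 of 10 genes, where 14.5% of all genes were called in this direction and 28.2% in either. The differences ran from 0.79 ± 0.10 for HSPA4 to 5.77 ± 0.47 for HSPA6, and HSPA8 differed by 0.46 ± 0.10, under 1.5-fold. In both comparisons with MMS 500 µM the SE and adjusted p of HSPA6 are too small, since its spread at that dose exceeded the shared one. QUE 100 µM lay below ETP 3 µM in 5 of 10. Of all genes, 23.4% were called in either direction and 10.7% higher, which is the direction opposite to that of these 5 genes. The differences were -3.08 ± 0.28 for HSPA4L, -1.37 ± 0.38 for HSPA1A, -1.26 ± 0.22 for DNAJA1, -1.17 ± 0.30 for HSPB8 and -0.69 ± 0.22 for DNAJB1. In limma with the left-out arrays kept, 0 of the 10 genes were called in this last comparison and 4 had an unadjusted p under 0.05, with the HSPA4L difference at -1.97 (adjusted p = 0.0944). HSPA4L and HSPA6 were the genes called with all 3 chemicals, HSPA6 higher with each and HSPA4L higher with ETP and MMS and lower with QUE.

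**Figure D4:**
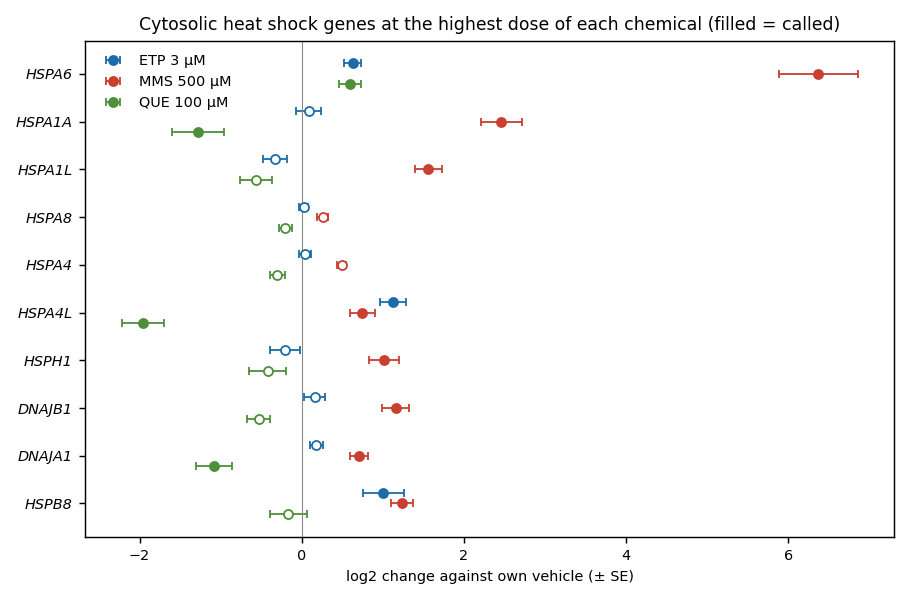
Change of each heat shock gene against its own vehicle at 3 µM ETP, 500 µM MMS and 100 µM QUE (horizontal axis, log2, ± SE); filled points were called. All 10 points of MMS lie above 0, from 0.26 for HSPA8 to 6.37 for HSPA6, while 9 of 10 points of QUE lie below 0.

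Other genes of the chaperone network were described from 9 lists. At MMS 500 µM, where 17.7% of all genes rose and 16.9% fell, 8 of 12 other cytosolic HSP70 and J protein genes rose and none fell, with a median change of 0.63. The 5 largest were DNAJB2 (1.48 ± 0.15), DNAJC5 (0.88 ± 0.12), DNAJB4 (0.70 ± 0.08), HSPA2 (0.69 ± 0.20) and DNAJA2 (0.69 ± 0.06). Of the HSP90 list, 5 of 11 rose, led by the HSP90 cochaperone and immunophilin FKBP4 (1.03 ± 0.09), then PPID (0.89), CDC37 (0.72), STIP1 (0.70) and UNC45A (0.70). HSP90AA1, the stress-responsive HSP90, changed by 0.14 ± 0.05 (adjusted p = 0.0125) and HSP90AB1, the constitutive one, by 0.38 ± 0.09, both under 1.5-fold. Of the HSP70 exchange factors and cochaperones 3 of 9 rose (SGTA 0.87, BAG1 0.75 and BAG5 0.60), while BAG3 was at 0.28 ± 0.07 (adjusted p = 0.00107), under 1.5-fold. Of 14 chaperonin and prefoldin genes, which fold actin and tubulin, 0 were called in limma, 7 had an unadjusted p under 0.05, and the median was 0.14.

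Among the other targets of heat shock factors 4 of 10 rose at MMS 500 µM, where 17.7% of all genes rose and 16.9% fell. ZFAND2A, an arsenite-induced partner of the proteasome, rose by 3.81 ± 0.17 (adjusted p = 1.19e-22), from vehicles of 6.39 to 6.67 to replicates of 9.71 to 11.24, and the others were DEDD2 (1.34), JMJD6 (1.17) and IER5 (0.81). HSF1 itself changed by 0.33 ± 0.09 (adjusted p = 0.00208), under 1.5-fold, and of the 6 measured factors and regulators only VCP was called (0.65). Of the mitochondrial chaperones DNAJA3 (0.87) and CLPB (0.68) rose and LONP1 (-0.74) fell, out of 9. Of 13 endoplasmic reticulum chaperones DNAJB9 rose (0.89) and PDIA4 fell (-1.04). HSPA5, the HSP70 of that compartment, was at -0.44 ± 0.07 (adjusted p = 1.90e-06), and had been called lower at 300 µM (-0.72 ± 0.07). FKBP4 (0.63), IER5 (0.89) and ZFAND2A (1.13) were already called higher at 300 µM. The other small heat shock proteins, HSPB1 among them, and HSF2 were not analysed here.

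With QUE 100 µM 13.1% of all genes rose and 14.5% fell. At that dose the HSP90 list held 4 of 11 genes that fell, FKBP5 (-1.20), CHORDC1 (-1.05), PPID and CACYBP (-0.75), and none that rose, with a median of -0.53. HSP90AA1 was at -0.33 ± 0.09 (adjusted p = 0.00199) and HSP90AB1 at -0.26 ± 0.12 (adjusted p = 0.0694). The other HSP70 and J proteins split, with DNAJB2 (1.09) and DNAJB6 (1.06) higher and HSPA2 (-1.05) and HSPA14 (-0.79) lower, and the heat shock factor targets split as well, with IER5 (1.44), ZFAND2A (1.31) and DEDD2 (0.68) higher and RGS2 (-1.33) and SERPINH1 (-0.89) lower. ZFAND2A was called from 10 µM QUE upwards, at 0.59 ± 0.15 there (adjusted p = 0.0162). Of the endoplasmic reticulum chaperones 3 of 13 rose, DNAJB9 (1.64), HYOU1 (0.78) and DNAJB11 (0.70). CLPB rose (1.03) and HSPE1 fell (-0.71) among 9 mitochondrial genes, PFDN6 fell (-0.81), and HSF1 (-0.00 ± 0.10), BAG3 (-0.03 ± 0.08) and HSPA5 (0.17 ± 0.10) did not pass. With ETP 3 µM the called genes of these lists were IER5 (1.01), DNAJB4 (0.92), DNAJB9 (0.71) and DNAJB2 (0.63), higher, and CACYBP (-0.75), FKBP5 (-0.69) and HSPA14 (-0.60), lower. Of all genes, 6.25% rose and 6.92% fell at that dose.

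**Figure D5:**
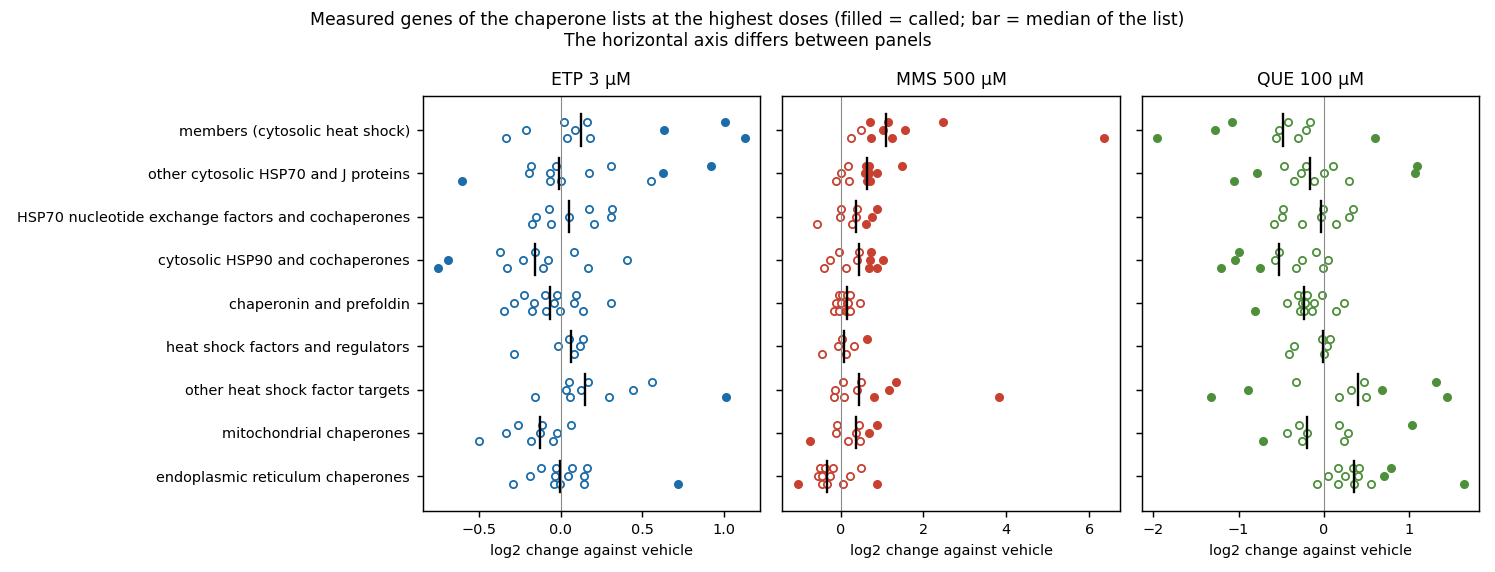
Log2 change of each measured gene of the chaperone lists at 3 µM ETP, 500 µM MMS and 100 µM QUE (horizontal axis, own scale per panel); filled points were called and black bars are list medians. The heat shock genes have the highest list median at MMS 500 µM (1.08), with ZFAND2A at 3.81 among the other heat shock factor targets. The genes and the lists were chosen with earlier results of these data known.

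Over the 21 doses, the mean change of the 10 genes was followed most closely by TEFM (Pearson r = 0.989), MAOA (0.988), RPP38 (0.986), LRRC41 (0.979), BCCIP (0.979), MAD2L1BP (0.979), GNG4 (0.978) and TEX10 (0.977), out of all genes called at 1 dose or more. The 21 changes share 3 vehicle groups and are dominated by the large changes at MMS 500 µM, so this is a description. At MMS 500 µM and QUE 100 µM their changes ranged from 0.81 (BCCIP) to 2.57 (GNG4) and from -1.22 (GNG4) to -0.22 (TEX10). Within the group, DNAJB1 (0.984) and HSPA1A (0.978) followed the mean most closely and HSPA4L (0.719) least, where each gene is part of the mean.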

How the data were processed

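Expression was measured on Affymetrix 3' IVT arrays of HT-1080 cells after 24 h with ETP, MMS, QUE or DMSO. The deposited log2 values were made by the authors with GCRMA in Partek, per the submitters' processing notes, whose versions are not given in the sources used here; array medians differ by chemical, so each chemical was analysed on its own. Of 54613 probe sets, 40914 name 1 gene in the platform annotation, 864 several and 12835 none, and 40858 of those single symbols equal RefSeq's. Probe sets with a log2 value of at least 4 in at least 5 of 145 arrays were kept (27102), and the one with the highest mean was taken per gene (12070 genes). The number of arrays limits the precision. The 16 ETP and QUE arrays with r2 in the title were left out, and arrays of one number in one group were averaged, which left 129 arrays and 127 replicates. No arrays held identical values.

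Each chemical was fitted over its 8 groups with limma 3.58.1 (lmFit, eBayes with a mean-variance trend; R 4.3.3), and p-values were adjusted by Benjamini-Hochberg over all genes within a comparison. Called means adjusted p under 0.05 and at least 1.5-fold. Exact two-sided permutation tests were run for the 10 genes at the 3 highest doses (30 tests). Dose steps and differences between chemicals were contrasts of the same kind, the latter in a fit over all 3 chemicals. The script was tested on simulated data. Promoters came from RefSeq (GRCh38.p14). Of the other lists, up to 5 called genes with the largest change at each highest dose are named, and HSF1, HSF2, HSP90AA1, HSP90AB1, HSPB1, BAG3 and HSPA5 always; values of FKBP4, IER5, HSPA5 and ZFAND2A at other doses were added after they were seen. For likeness, the 8 genes with the highest Pearson correlation of their 21 changes with the mean of the 10 genes are named. The genes and the lists were chosen with earlier results of these data known.

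Replicate numbers recur across the groups of a chemical. Deviations from the group means correlated on average at 0.52, 0.51 and 0.34 for same-numbered samples of ETP, MMS and QUE, and at -0.12, -0.10 and -0.07 for other numbers. Every pair of a dose with its vehicle was over 0.1 for all ETP doses, MMS up to 300 µM and QUE up to 30 µM, so the numbers pair these samples, but not for MMS 500 µM (lowest -0.01) or QUE 60, 80 and 100 µM (lowest 0.06). The alternatives tried were the replicate block, keeping the left-out arrays, no filter or a stricter one (log2 of 6), the mean of a gene's probe sets, quantile normalization, no trend, adjusted p alone, leaving out arrays with the suffix nf, and leaving out each replicate.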

Additional observations from a re-analysis of the deposited data

Results flagged for a closer look

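In each of 240 groups of replicates (a gene in a dose or vehicle group) the lowest and the highest replicate were set against the others, and in 26 the gap to the nearest replicate passed the critical value of Dixon's test for the size of the group. Chance alone gives about 1 in 20, or 12 groups. Explanations for these values were not tested.

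With MMS the far replicate was number 5 and low in each case but 1, the vehicle number 4 of HSPA6 (3.93, high). Number 5 of HSPH1 read 9.47 in the vehicles, 9.39 at 1 µM, 9.40 at 3 µM and 9.86 at 100 µM, and number 5 of DNAJA1 read 10.54 both in the vehicles and at 10 µM. Number 5 was also far below the others for HSPA4L in the vehicles (6.37), HSPB8 at 3 µM (3.67), DNAJB1 at 30 µM (7.71), HSPA4 at 100 µM (10.78) and HSPA6 at 500 µM (5.41). At 500 µM the heat shock genes other than HSPA6 had no such far replicate.

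With ETP the far replicates were number 3 of HSPA1L at 0.3 µM (5.36) and 1 µM (5.37), both high, number 3 of HSPA4L at 3 µM (7.61, low) and the vehicle number 1 of HSPA8 (13.39, high).

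With QUE number 1 was far from the others for HSPA1L in the vehicles (4.72, low) and at 10 µM (4.79, low), for HSPA4L at 1 µM (7.43, high) and for HSPB8 at 30 µM (5.52, high) and 100 µM (5.74, high). Number 3 was far below for HSPA4 at 30 µM (10.47) and HSPA1L at 80 µM (3.08). Number 4 was far below for DNAJA1 in the vehicles (11.10) and HSPA1A at 3 µM (9.30), and number 6 far above for HSPA6 at 100 µM (5.10).

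Among the arrays left out of the comparisons, that of QUE 100 µM was above its own vehicle by 1.91 for HSPA4L and 1.53 for HSPB8, where the replicates used differed by -1.96 and -0.16. It is 1 array with 1 vehicle, so no test was made.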

How the results depend on the processing

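Over 40 changes of a gene at a dose and all alternatives, 708 values kept their direction and their side of the threshold, 27 (16 of them with 1 replicate left out) lost the call, 28 (18 with 1 replicate left out) gained it, and none reversed. The replicate block changed no call at any of the 21 doses, and the exact permutation tests changed none at the highest doses. For the exact tests a call meant an unadjusted p under 0.05 and at least 1.5-fold, a looser limit than the adjusted p of the main fit. At MMS 500 µM 8 genes were called, 8 with the replicate block, 10 by adjusted p alone and 6 with the stricter filter. By adjusted p alone the count went from 1 to 2 at ETP 1 µM, 0 to 2 at MMS 100 µM, 4 to 8 at MMS 300 µM, 2 to 4 at QUE 30 µM, 3 to 6 at QUE 60 µM, 4 to 8 at QUE 100 µM and 5 to 8 for MMS 500 µM against ETP 3 µM, since small changes then count. With the left-out arrays kept, limma called 0 genes in place of 1 at ETP 0.3 µM and at ETP 1 µM (1 had an unadjusted p under 0.05 at each), 1 in place of 2 at QUE 30 µM, 6 in place of 5 for MMS 500 µM against ETP 3 µM, and 0 in place of 5 for QUE 100 µM against ETP 3 µM (4 had an unadjusted p under 0.05). With the mean of a gene's probe sets 1 gene was called at QUE 30 µM, the calls of HSPA6 at ETP 3 µM (0.39) and QUE 100 µM (0.44) and of HSPA1L at QUE 80 µM (-0.40) were lost, and DNAJA1 was called at MMS 300 µM (0.62). For HSPA6 and HSPA1L that mean includes a probe set near background. The stricter filter, which leaves dim genes such as HSPA6 untested, gave 3 for MMS 500 µM against ETP 3 µM and 2 for the step from MMS 300 to 500 µM. With 1 replicate left out, counts ranged from 0 to 1 at ETP 0.3 µM, 1 to 2 at ETP 1 µM, 0 to 1 at MMS 100 µM and 1 to 4 at QUE 30 µM. Without the arrays with the suffix nf, DNAJB1 (-0.68) and HSPH1 (-0.64) were called at QUE 100 µM. The alternatives for the dose step and for the differences between chemicals were chosen after seeing the data. Causes of these shifts other than those given were not tested. Genes near background, HSPA6 outside MMS 500 µM and HSPB8 with MMS, are limited by signal.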
